A study of Homo sapiens with 40 samples.

Results

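Apolipoproteins are the proteins of plasma lipoproteins, and 10 of their genes were followed in differentiated HepaRG cells. The members were chosen by name among 56568 gene names in the deposited tables, and were APOA1, APOA2, APOA4, APOA5, APOB, APOC1, APOC2, APOC3, APOE and APOH. HepaRG is an established human hepatic cell line whose differentiated culture holds hepatocyte-like and primitive biliary cells. The transcriptome was measured by RNA sequencing in 40 libraries, 5 in each of 8 groups, after 6 days of exposure in a test medium with fetal bovine serum and DMSO that all groups shared. Beside the solvent control there were 3 groups with PCB 126 (100 pM, 10 nM or 1 µM), 3 with glyphosate (10 µg/L, 1 mg/L or 0.1 g/L) and 1 with the formulation Roundup (10 µg/L). PCB 126 belongs to the coplanar polychlorinated biphenyls, which act on the aryl hydrocarbon receptor, and glyphosate is the herbicidal ingredient that Roundup contains. All libraries came from a single cell line, and the labels do not say whether the libraries of a group came from separate cultures, so p-values measure the spread between these libraries, which may be technical. The same 5 control libraries served all 7 comparisons.

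Hepatocytes secrete most plasma apolipoproteins. APOB is the backbone of the very-low-density lipoprotein particle, APOA1 and APOA2 are the main proteins of high-density lipoprotein, and the exchangeable proteins of the APOC group and APOE move between particles and steer their lipolysis and uptake. APOH, also called beta-2-glycoprotein I, binds phospholipids and is a plasma protein of hepatocytes. The question was whether the fall of APOA2 in cells exposed to PCB 126 was shared by the rest of the family, and whether it appeared with the herbicides. APOA2 had been singled out in earlier results of these same libraries, so that its direction at 1 µM is a description and not independent evidence.

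Values are FPKM, fragments per kilobase of transcript scaled to the mapped fragments of the library, summed over the transcripts of a gene, so that levels per length can be compared between genes. The read depth behind a value is unknown from FPKM. In the study's alignment summary, 9 of the 40 libraries had more than 30% of read pairs aligned at more than 1 place, and the changes of the members at 1 µM PCB 126 are given with and without them. They were control replicate 5, replicates 3 and 5 at 10 nM PCB 126, replicates 1 and 5 at 1 µM PCB 126, replicate 5 of glyphosate 10 µg/L, replicate 2 of glyphosate 0.1 g/L and replicates 4 and 5 of Roundup, and 2 libraries without a name in that summary were kept. The hepatocyte label was checked in the control libraries, where the summed level of 15 hepatocyte markers was 17877 to 29984 FPKM and a single marker, TAT, stayed under 1 FPKM in every one of them.

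In control cells, 7 members were expressed and their order was led by APOA1, the activator of cholesterol esterification on high-density lipoprotein, at 1008 ± 213 FPKM (SD, n = 5). APOE, the ligand of the low-density lipoprotein receptor family, followed at 921 ± 143 FPKM, and these neighbours did not separate, as APOA1 was the higher in 4 of 5 libraries and their ranges overlapped. APOH came next at 426.3 ± 69.6 FPKM, below every APOE value. APOB at 279.7 ± 54.7 FPKM, APOC1, an inhibitor of lipoprotein uptake, at 236.5 ± 120 FPKM and APOC3, an inhibitor of lipoprotein lipase, at 164.1 ± 64.5 FPKM formed a stretch in which each neighbour overlapped the next. APOA2 stood clear beneath them at 35.82 ± 8.86 FPKM and made up 1.18% ± 0.336 of the summed level of the family, which was 3073 ± 518 FPKM.

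The remaining 3 members were scarcely detected. APOA5, which enhances triglyceride hydrolysis, had 0.9125 ± 0.348 FPKM in control cells and a range of 0.3587 to 1.906 FPKM over all 40 libraries. APOA4, mainly an intestinal protein, lay between 0.03251 and 0.5608 FPKM in all libraries. APOC2, the cofactor of lipoprotein lipase, had a listed value of 0 in each of the 5 control libraries and reached 0.4876 FPKM in a Roundup library. These 3 genes did not pass the filter on low variance and had no test across genes, so the counts below concern 7 tested members out of 10.

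**Figure D1:**
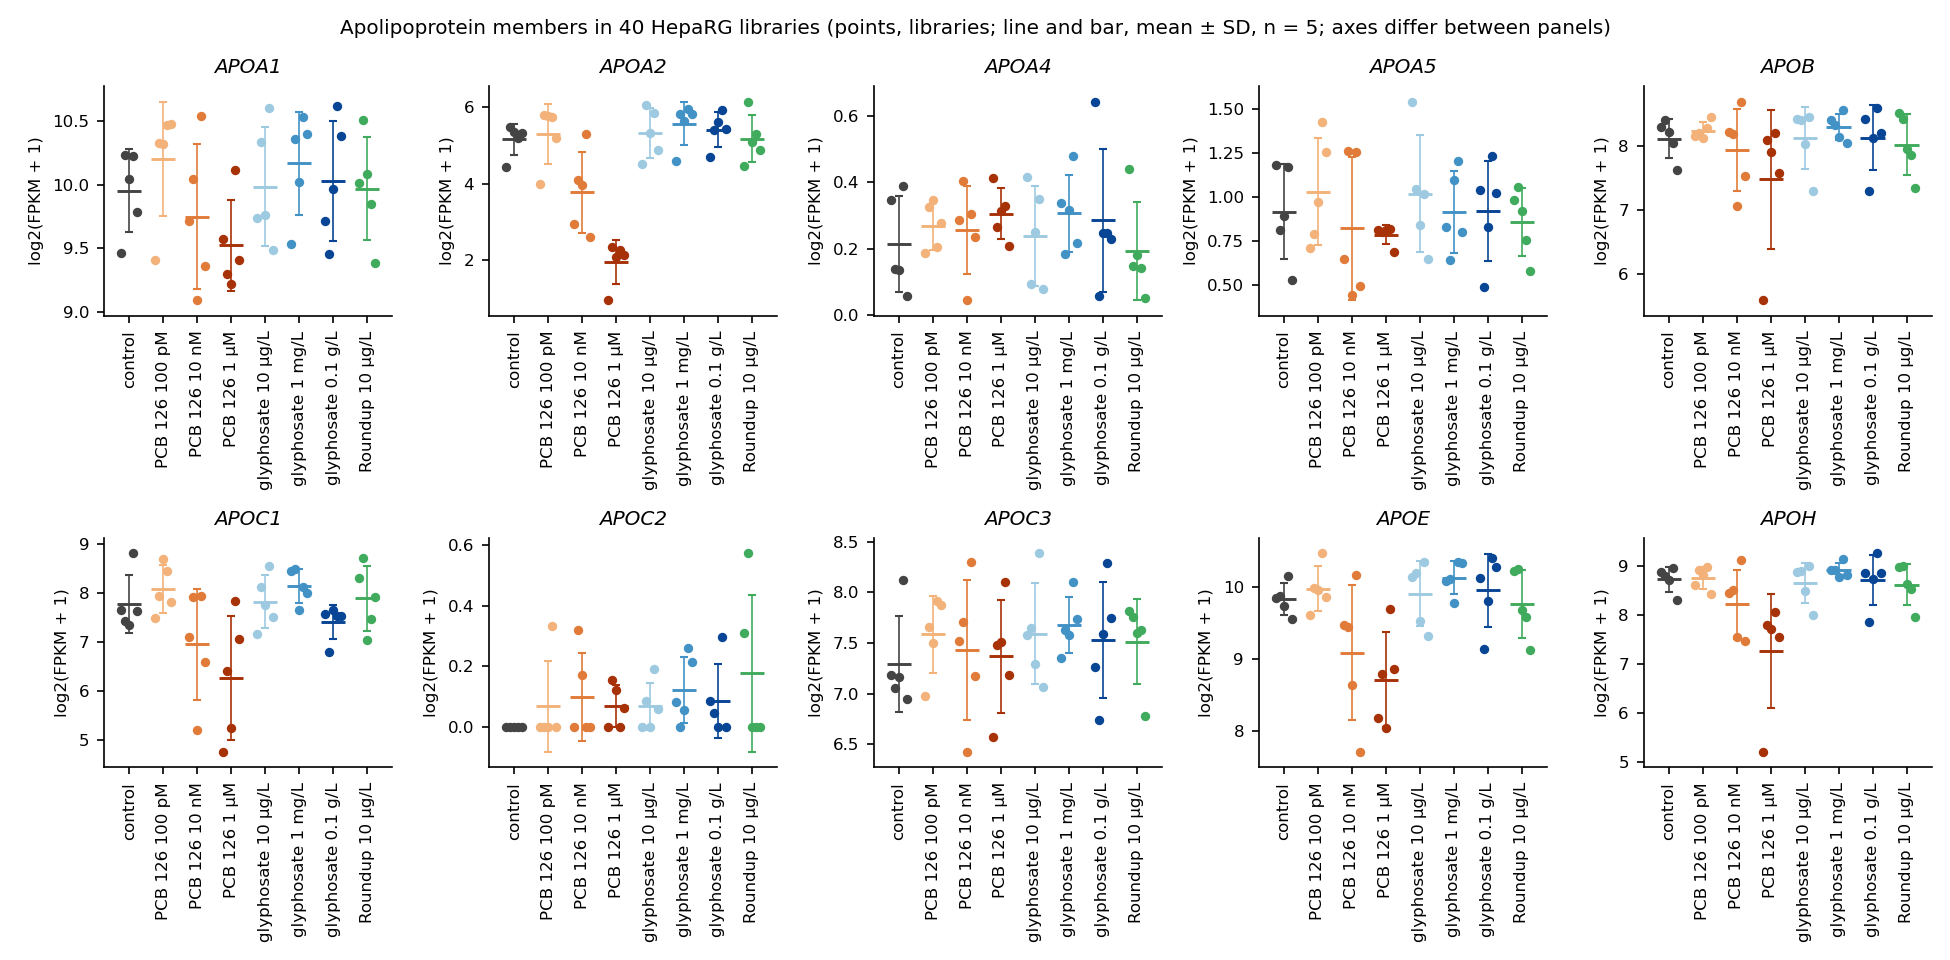
Each panel plots 1 member as log2(FPKM + 1) against the 8 groups, with 1 point per library and a line and bar for the mean ± SD (n = 5). APOA2 drops at 1 µM PCB 126, from a control mean of 35.82 FPKM to 3.093 FPKM, while the glyphosate and Roundup groups stay around the controls. At 10 nM PCB 126 its mean is 16.15 FPKM with values up to 38.23 FPKM, a change that was not called.

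APOA2 fell at 1 µM PCB 126, and every exposed library was lower than every control library. The control libraries had 20.75, 43.6, 39.57, 35.87 and 39.32 FPKM, and the libraries at 1 µM had 0.9483, 4.119, 3.218, 3.8 and 3.381 FPKM. The highest exposed value was 4.119 FPKM and the lowest control value 20.75 FPKM. On the log2(FPKM + 1) scale the change was -3.20 (SE 0.42, 95% interval -4.06 to -2.34), which is 9.21-fold lower, with an adjusted p of 4.42e-05 in limma. It was the lowest log2 fold change of all 9755 genes tested in the PCB 126 table. APOA2 was the 1 member called lower, and 0 members were called higher, where 1.22% of all genes tested were called lower and 0.646% higher. The balance of these calls over all genes, 119 lower and 63 higher, was 553 and 532 with quantile normalization and 227 and 271 with an ordinary linear model with library size as a term. Of the 7 tested members 4 had an unadjusted p under 0.05, as had 13.6% of all genes. Without the libraries above the alignment limit, the control libraries ranged from 20.75 to 43.6 FPKM (n = 4) and the exposed ones from 3.218 to 4.119 FPKM (n = 3), and the change was -2.89 with an adjusted p of 0.00372.

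APOH had the next clearest separation. Its control libraries had 469.7, 439.2, 414.2, 494 and 314.2 FPKM, and its libraries at 1 µM had 36.08, 221.1, 208.2, 263.7 and 184.7 FPKM. The groups did not overlap, and replicate 1, which is above the alignment limit, was lower than all others. Among the tested members, APOA2 and APOH were the 2 whose exposed values all lay below all control values, a pattern shown by 1.64% of all genes tested. The log2 fold change of APOH was -1.46 (SE 0.40, 95% interval -2.28 to -0.64) with an adjusted p of 0.0554, which did not pass the threshold of 0.05. Without the libraries above the limit the value was -0.98 with an adjusted p of 0.00492, past the threshold. Without replicate 1 at 1 µM alone it was -0.95 and did not pass, and APOH was called in 3 of the 10 fits with 1 library left out.

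APOE and APOC1, which lie next to each other on chromosome 19, had lower means at 1 µM with overlapping groups. APOE had 923.7, 940.1, 851.7, 1139 and 750.4 FPKM in control cells and 289.1, 444.2, 263.4, 828.1 and 462.3 FPKM at 1 µM. A single exposed library, replicate 4, reached into the control range. The log2 fold change of APOE was -1.12 (SE 0.36, 95% interval -1.85 to -0.39), with an adjusted p of 0.114 in limma, and -1.06 (adjusted p 0.0664) without the libraries above the limit. APOC1 had 201.4, 171.2, 162.6, 449.8 and 197.7 FPKM in control cells and 26.34, 84.37, 37.06, 229.3 and 132.5 FPKM at 1 µM. Again replicate 4 at 1 µM was the one that overlapped the controls, and without it 4 members were called lower, APOE at -1.37 and APOC1 at -1.90 among them, in a fit that called 132 of 9800 genes lower and 53 higher. With all libraries the log2 fold change of APOC1 was -1.51 (SE 0.51, 95% interval -2.55 to -0.47), with an adjusted p of 0.144, and it was -1.31 (adjusted p 0.176) without the libraries above the limit.

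The remaining abundant members stayed closer to the controls. APOB had 194.5 to 336.4 FPKM in control cells and 47.14, 271.4, 238.8, 292.5 and 188.9 FPKM at 1 µM, with replicate 1 far below the rest. Its log2 fold change was -0.64 (95% interval -1.41 to 0.13, adjusted p 0.458), and it was -0.17 without replicate 1 and -0.17 without the libraries above the limit. APOA1, the partner of APOA2 on high-density lipoprotein, had 707.4 to 1203 FPKM in control cells and 597.4 to 1111 FPKM at 1 µM, a log2 fold change of -0.43 (95% interval -1.01 to 0.16, adjusted p 0.509). APOC3, which shares a cluster on chromosome 11 with APOA1, had 122.6 to 278.4 FPKM in control cells and 94.18 to 273.6 FPKM at 1 µM, a log2 fold change of 0.07 (95% interval -0.60 to 0.75, adjusted p 0.927). With those libraries left out, the values were -0.44 for APOA1 and 0.31 for APOC3, with adjusted p of 0.484 and 0.632.

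The values of all genes were shifted downwards at 1 µM, with a median log2 fold change of -0.26 over the 9755 genes and 79.2% of them below 0. Scaling the libraries by their 75th percentile moved this median to -0.12 and quantile normalization moved it to -0.01. With unscaled values the median was -0.13 without the libraries above the limit and -0.11 without replicate 1 at 1 µM. Other removals enlarged it, to -0.41 without control replicate 5 and to -0.32, -0.33 and -0.33 without replicates 2, 3 and 4 at 1 µM. The size of the shift thus depended in part on single libraries, in both directions. Relative to the median of all genes, APOA2 stood at -2.94, APOC1 at -1.25, APOH at -1.20, APOE at -0.86, APOB at -0.38, APOA1 at -0.17 and APOC3 at 0.33. Under the 75th-percentile scaling these distances were -2.96, -1.23, -1.18, -0.84, -0.36, -0.14 and 0.36, and no member changed sign in either scaling.

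**Figure D2:**
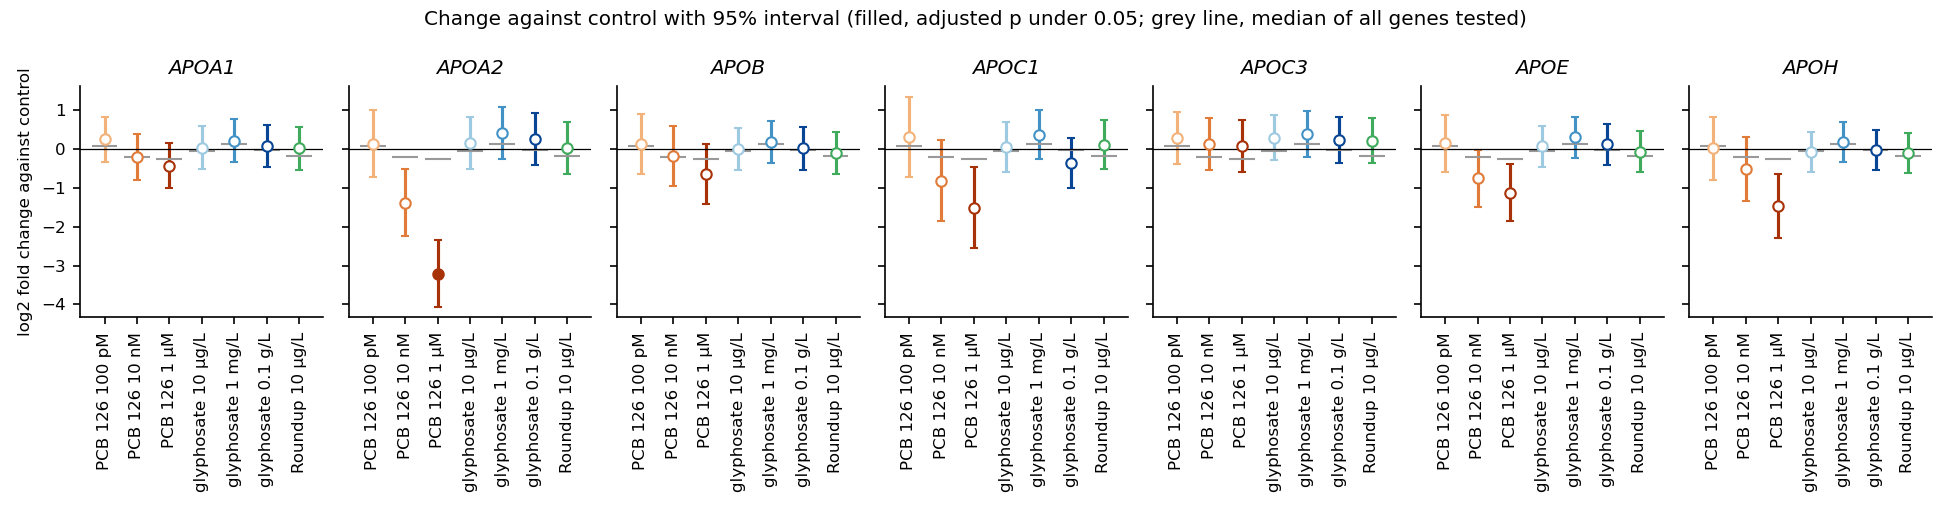
Each panel plots, for 1 of the 7 tested members, the log2 fold change of log2(FPKM + 1) against control in the 7 exposed groups with its 95% interval. The grey lines give the median of all genes tested. The single filled point is APOA2 at 1 µM PCB 126, at -3.20.

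APOA2 was also followed over the lower concentrations of PCB 126. At 100 pM its libraries had 14.83, 54.81, 54.03, 52.13 and 35.37 FPKM, and reached beyond the control range at both ends. Here 0 members were called, 0% of all genes passed the adjusted threshold by limma and 1.19% had an unadjusted p under 0.05. At 10 nM they had 6.79, 16.02, 14.64, 38.23 and 5.056 FPKM, so that 4 libraries lay below every control library and replicate 4 lay among the controls. The log2 fold change at 10 nM was -1.38 (SE 0.42, 95% interval -2.24 to -0.52), with an adjusted p of 0.338 in limma. Replicate 4 was at the same time the highest library at 10 nM for all 7 tested members. Without it the change of APOA2 at 10 nM was -1.76 with an adjusted p below the threshold. With 1 library left out the change ranged from -1.76 to -1.08, and over 14 other settings from -2.14 to -0.95. It was called in 2 of these 24 fits. Without the libraries above the limit the values at 10 nM ran from 6.79 to 38.23 FPKM (n = 3). At 10 nM 0 members were called, where 0.0615% of all genes tested were called lower and 0.144% higher, and 2 members, APOA2 and APOE, had an unadjusted p under 0.05, as had 4.85% of all genes.

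Over the dose steps from control to 1 µM, 3 of the tested members had a falling slope past the threshold. The steps were counted as equal. At 100 pM the 7 tested members had log2 fold changes of 0.02 to 0.31, so the slopes do not show a fall at the first step. The slope per step was -1.11 (SE 0.16, adjusted p 6.47e-05) for APOA2, -0.49 (SE 0.13, adjusted p 0.0267) for APOH and -0.43 (SE 0.11, adjusted p 0.0323) for APOE in limma, and 2.86% of all genes tested had a falling and 0.923% a rising slope past the threshold. APOC1 had a slope of -0.57 (SE 0.16) with an adjusted p of 0.0519. The slopes of APOB (-0.22), APOA1 (-0.17) and APOC3 (0.01) did not pass. The calls of APOH and APOE on the trend were lost in several other settings. That of APOE was absent without the libraries above the limit (-0.34, adjusted p 0.0717), and those of both were absent without replicate 5 at 1 µM (adjusted p 0.0551 for APOH and 0.0608 for APOE).

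The F-test across the 4 groups of the PCB 126 table passed for APOA2 (F = 27.6, adjusted p 4.71e-05), where 1.39% of all genes passed. The other 6 tested members had adjusted p from 0.123 to 0.927. When the libraries above the limit were left out, APOA2 (adjusted p 0.00751) and APOH (0.0182) passed this test, where 275 of 8298 genes did. Between neighbouring concentrations, APOA2 differed by -1.52 from 100 pM to 10 nM and by -1.82 from 10 nM to 1 µM, but 0 of 9755 genes passed limma's adjusted threshold in either step, with 558 and 324 genes (5.72% and 3.32%) at an unadjusted p under 0.05.

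Whether APOA2 fell more than the rest of the family was tested within libraries, where the scaling of a library enters the difference between genes only through the pseudocount of 1. In control cells log2(FPKM + 1) of APOA2 minus that of APOA1 was -4.79 ± 0.24, and at 1 µM PCB 126 it was -7.57 ± 0.68, with no overlap between the groups. The change of -2.78 had an adjusted p of 0.0102 in an exact permutation test of 5 against 5 libraries, 2-sided and adjusted over the 9 ratios. The differences of APOA2 to APOC3 (-3.28), APOB (-2.56) and APOE (-2.08) likewise fell without overlap, with the same adjusted p of 0.0102. Their unadjusted p of 0.00794 is the smallest that this exact permutation test can give with 5 against 5 libraries. Against APOH the change was -1.74 (adjusted p 0.0179) and against APOC1 it was -1.69 (adjusted p 0.0238), both with overlap of single libraries. Relative to each of the other 6 tested members, the level of APOA2 was thus lower at 1 µM than in control cells. These ratios rest on the same libraries in which APOA2 had been singled out. Without the libraries above the limit the ratios to APOA1, APOB, APOC3, APOE and APOH kept adjusted p of 0.0321 in the exact permutation test. The smallest unadjusted p that this test can give with 4 against 3 libraries is 0.0286. The ratio to APOC1 did not pass there, at -1.58 with an adjusted p of 0.143. The ratios to the 3 scarcely detected members changed by -3.29, -3.07 and -3.27 for APOA4, APOA5 and APOC2, close to the change of APOA2 alone. With levels near 0 they repeat that change and are not further evidence, although they were among the 9 ratios of the adjustment.

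**Figure D3:**
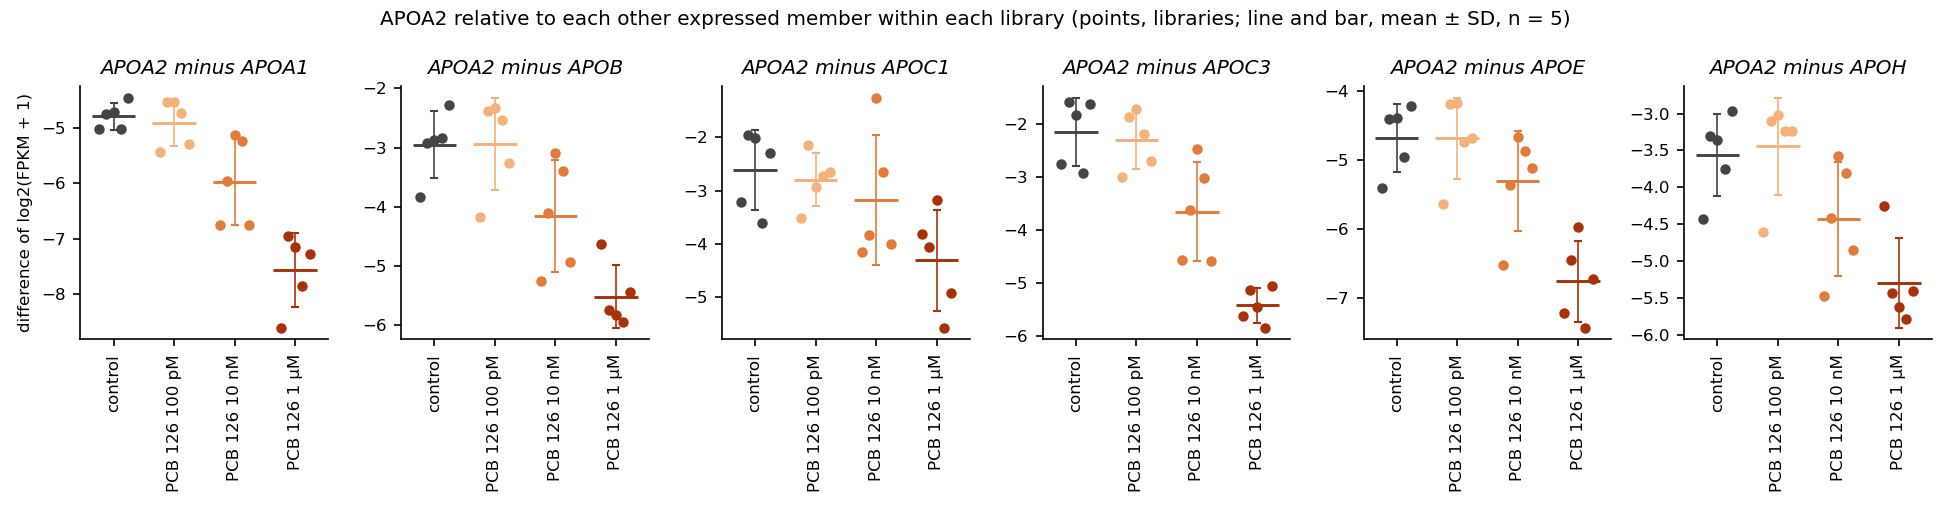
For each of 6 members, the panels plot log2(FPKM + 1) of APOA2 minus that of the member within each library against the 4 PCB 126 groups, with the mean ± SD (n = 5). Against APOA1 the mean goes from -4.79 in control cells to -7.57 at 1 µM, and all 5 exposed libraries lie below all 5 control libraries.

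At 10 nM the same ratios changed by -1.18 for APOA1, -1.20 for APOB, -1.51 for APOC3, -0.87 for APOH, -0.63 for APOE and -0.56 for APOC1. None of the 9 passed after adjustment, the lowest adjusted p being 0.0571 in the exact permutation test, although the ratio to APOA1 did not overlap between the groups. At 100 pM and in the 4 herbicide groups the changes of the 9 ratios all had adjusted p of at least 0.738.

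The composition of the family differed between the groups. The summed level of the 10 members was 3073 ± 518 FPKM in control cells and 1884 ± 667 FPKM at 1 µM. The share of APOA2 went from 1.18% ± 0.336 to 0.165% ± 0.0625, that of APOE from 30.1% ± 1.86 to 23.6% ± 3.94 and that of APOH from 13.9% ± 1.74 to 9.52% ± 4.14. The share of APOA1 was 32.8% ± 4.68 in control cells and 41.8% ± 10.7 at 1 µM, and that of APOC3 was 5.24% ± 1.19 and 9.24% ± 1.71. In the libraries that were not above the limit the share of APOA2 was 1.087% ± 0.296 (n = 4) and 0.1871% ± 0.053 (n = 3). In these libraries the shift was smaller for APOA1, 32.23% ± 5.18 and 36.78% ± 2.34, and for APOH, 14.28% ± 1.81 and 11.48% ± 2.46. APOE had 30.08% ± 2.14 and 23% ± 5.3 there, and APOC3 5.32% ± 1.35 and 10.22% ± 1.46. These shares describe the libraries and were not tested.

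The transcripts behind the sums were examined for APOA2, APOE and APOC1. The 10 annotated transcripts of APOA2 lie on the minus strand of chromosome 1 (GRCh38, chr1:161222292-161223631), and 74.2% of its level in control cells came from ENST00000367990, a protein-coding transcript with 4 exons. This transcript had 17.41, 38.42, 36.85, 3.496 and 36.67 FPKM in the control libraries. Replicate 2 at 1 µM had 2.818 FPKM of it and the other 4 were listed at 0, and a value of 0 in such a table can also be a failed estimate. Its log2 fold change was -4.04 (SE 0.83), with an adjusted p of 0.0269 over 21181 transcripts in limma. The shorter ENST00000463273 had 2.715, 2.135, 1.253, 29.48 and 1.783 FPKM in control cells and 0.7225 to 3.404 FPKM at 1 µM, with a log2 fold change of -0.86 (adjusted p 0.675). In control replicate 4 the assignment was inverted between these transcripts, while the sum of the gene, 35.87 FPKM, was ordinary.

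For APOE, ENST00000252486 made up 93.6% of the control level, at 704.2 to 1055 FPKM. At 1 µM it had 0.01538, 412.2, 0.5294, 755 and 430.5 FPKM, and in replicates 1 and 3, where it was nearly absent, ENST00000434152 had 274.3 and 218.4 FPKM against a control range of 36.34 to 64.09 FPKM. The division between these transcripts therefore differed between libraries of the same group, and neither passed the test (adjusted p 0.313 and 0.705 in limma). APOC1 was divided among 9 transcripts with no stable leader, since ENST00000592535 had 29.15, 120.1, 91.56, 411.1 and 12.63 FPKM in the control libraries. APOE and APOC1 belong to 1 assembled locus together with AC011481.3 and 3 unnamed transcripts, and the summed locus changed by -1.17 at 1 µM with an adjusted p of 0.0204, past the threshold. APOH and APOB were each carried by a single transcript, which held 100% of the control level in both genes.

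**Figure D4:**
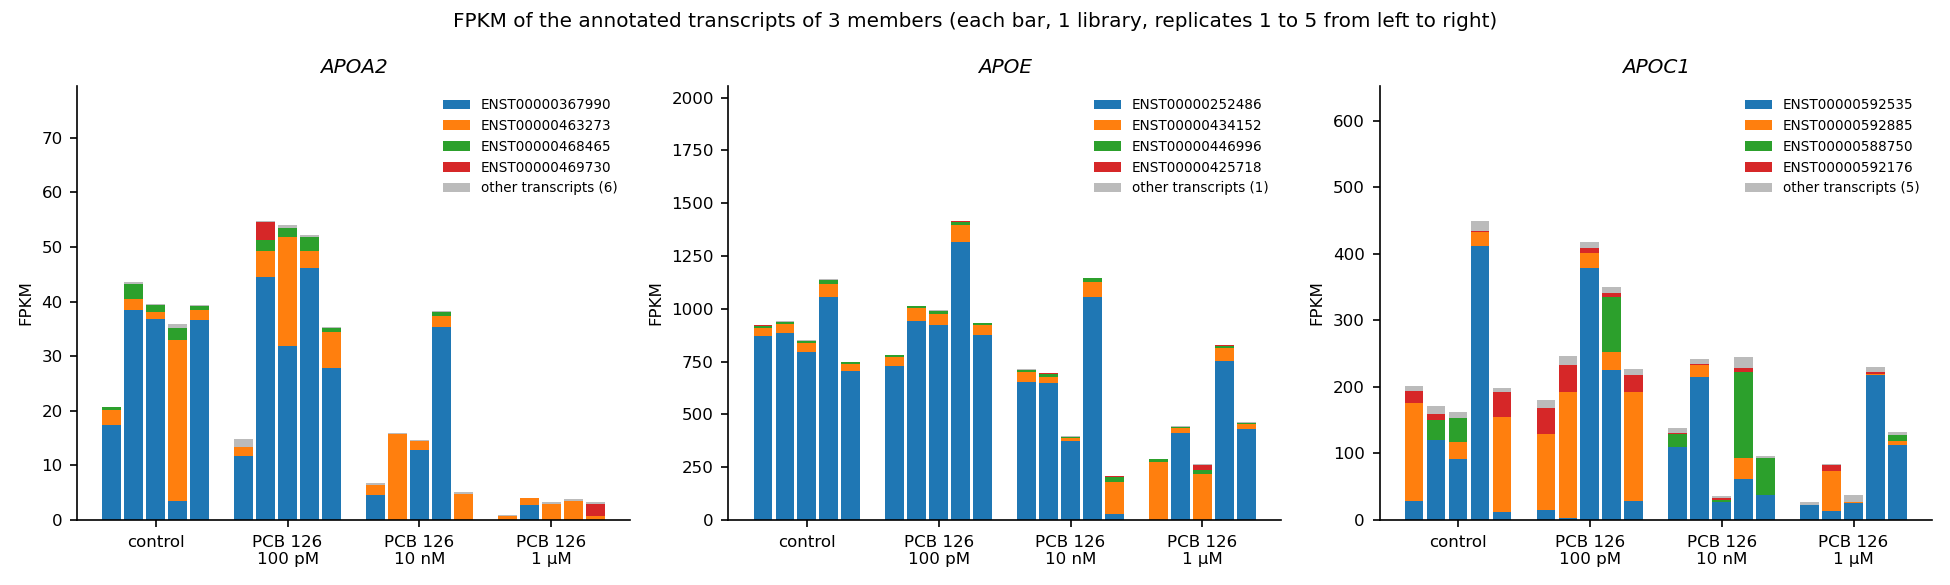
Stacked bars give the FPKM of the annotated transcripts of APOA2, APOE and APOC1 in the 20 libraries of the PCB 126 table, 1 bar per library. In APOE the leading transcript has 0.01538 and 0.5294 FPKM in replicates 1 and 3 at 1 µM, where another transcript takes 274.3 and 218.4 FPKM.

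The sequence before the transcription start was read for the members with a promoter window in RefSeq (GRCh38.p14), which were 7 of the 10, in 10 windows. The 250 bases before the start of APOA2 and APOH are shown because these were the members whose groups did not overlap at 1 µM PCB 126. Both lie on the minus strand, at chr1:161223629-161223878 and chr17:66229416-66229665, and are written 5′ to 3′.
APOA2: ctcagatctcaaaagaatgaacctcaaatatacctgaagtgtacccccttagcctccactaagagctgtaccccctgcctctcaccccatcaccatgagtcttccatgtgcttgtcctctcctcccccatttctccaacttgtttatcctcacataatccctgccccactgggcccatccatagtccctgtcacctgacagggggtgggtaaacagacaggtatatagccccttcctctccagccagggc
APOH: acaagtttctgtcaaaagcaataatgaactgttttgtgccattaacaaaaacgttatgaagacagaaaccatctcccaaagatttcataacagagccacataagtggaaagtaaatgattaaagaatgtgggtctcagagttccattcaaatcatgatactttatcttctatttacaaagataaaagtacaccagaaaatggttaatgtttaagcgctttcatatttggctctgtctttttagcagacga
These windows were searched on both strands for GCGTG, the core bound by the aryl hydrocarbon receptor with its partner ARNT, for CAAAGTCCA, a sequence of the kind bound by HNF4A, for the nuclear receptor half-site AGGTCA and for TATAAA. Capitals would mark a match, and neither sequence held one. Of all 35116 promoter windows, 32.2% held GCGTG in these 250 bases, 0.325% held CAAAGTCCA, 12.1% held AGGTCA and 10.7% held TATAAA. Matches were found in the windows of APOA4, APOA5 and APOC2, and not in those of APOC1 or APOE. The abundant members APOA1, APOB and APOC3 had no window, so matches could not be compared with level across the family. The absence of these letters in this window says nothing about binding elsewhere.

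Other genes of lipoprotein metabolism were counted from lists, where 1.22% of all genes tested were called lower and 0.646% higher at 1 µM. Of 24 genes of lipoprotein assembly, remodelling and clearance, 14 were tested and 0 were called at 1 µM, and their median log2 fold change of -0.25 lay at the median of all genes, -0.26. Of 19 other apolipoproteins and lipoprotein-carried proteins, 12 were tested, with a median of -0.34, and 1 fell. This was PON1, an esterase carried on high-density lipoprotein, with 22.2 ± 3.57 FPKM in control cells and 8.598 ± 3.41 FPKM at 1 µM (log2 fold change -1.35, SE 0.33, adjusted p 0.0259 in limma). The highest exposed value of PON1, 13.13 FPKM, lay below the lowest control value, 18.36 FPKM.

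Of 24 regulators of apolipoprotein genes, 21 were tested, their median was -0.20 and 2 fell at 1 µM, where 1.22% of all genes tested were called lower. FOXA1, a pioneer factor of hepatocyte enhancers, went from 7.703 ± 1.75 to 2.875 ± 1.17 FPKM (log2 fold change -1.21, adjusted p 0.0213). NR1H4, the bile acid receptor FXR, went from 8.383 ± 3.75 to 2.995 ± 0.927 FPKM (log2 fold change -1.19, adjusted p 0.0348 in limma). At 100 pM, at 10 nM and in the 4 herbicide groups, 0 genes of these 3 lists were called by limma. In the fit without the libraries above the limit, PON1 (-1.10), FOXA1 (-0.98) and NR1H4 (-1.13) stayed past the threshold at 1 µM, where 320 of 8298 genes were called lower and 206 higher. That fit also called LPL, CLU and FOXA3 lower and SCARB1, APOL1 and MLXIPL higher, which were named after their values were seen.

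Other products of hepatocytes moved in the same libraries. At 1 µM the 15 hepatocyte markers had a median log2 fold change of -0.96, and 4 of them fell, AHSG (adjusted p 0.00573 in limma), TTR (0.00797), FGB (0.0259) and CPS1, which was named after its values were seen. Over all genes tested the median was -0.26, and 1.22% were called lower and 0.646% higher. AHSG, a plasma glycoprotein, went from 40.24 ± 7.24 to 11.47 ± 5.53 FPKM, TTR, the carrier of thyroxine and retinol-binding protein, from 361.4 ± 86.4 to 120.4 ± 42.2 FPKM and FGB, a fibrinogen chain, from 1559 ± 477 to 637.5 ± 255 FPKM. TAT, a tyrosine-degrading enzyme, rose from 0.6277 ± 0.16 to 3.662 ± 1.34 FPKM (adjusted p 0.00497 in limma) and was called higher at 10 nM too. The summed level of this list was 17877 to 29984 FPKM in control cells and 7006 to 18127 FPKM at 1 µM. A lower share of hepatocyte-like cells and less RNA of these genes per cell cannot be told apart in these bulk libraries. The part of this list in the change of the apolipoproteins was not tested. Without the libraries above the limit AHSG (-1.58), TTR (-1.35), FGB (-1.08), CPS1 and also ALB were called lower and TAT (1.65) higher, with a median of -0.83 for the list.

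The other marker lists were at lower levels. The summed biliary and progenitor markers were 325.1 to 653.3 FPKM in control cells and 207 to 340.1 FPKM at 1 µM, with 0 of 5 tested genes called, a median of -0.87 and KRT7, EPCAM, CFTR and PROM1 under 1 FPKM in every library of both groups. The fibroblast and stellate markers were 41.13 to 91.89 FPKM and 50.83 to 190 FPKM, and 1 of 6 tested genes was called, COL3A1, a fibrillar collagen, which fell from 12.48 ± 3.63 to 0.5756 ± 0.274 FPKM (adjusted p 2.29e-05 in limma) and was called lower at 10 nM too. The enterocyte markers summed to at most 2.936 FPKM and the macrophage markers to at most 7.484 FPKM in these groups, and the part of these lists in the result was not tested. Among the libraries not above the limit the calls were ANXA4 and SPP1 (lower) among the biliary markers and COL3A1 and PDGFRB (lower) and COL1A1, DCN and LUM (higher) among the fibroblast markers, named after their values were seen. Under 1 FPKM in every library of control cells and of 1 µM PCB 126 were FABP2, SI, LCT and CDX2 of the enterocyte list. So were CD163, MARCO and PTPRC of the macrophage list.

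The pattern of APOA2 over the 20 libraries of the PCB 126 table was most like that of TTR (Pearson's r = 0.955 on log2(FPKM + 1)), SPOCK3 (0.953), UGT2B11 (0.951), VSIG1 (0.948) and AHSG (0.946), out of 9754 other genes. These correlations share libraries and groups and are given as a description. SPOCK3, an extracellular proteoglycan, went from 4.649 ± 0.63 FPKM in control cells to 1.176 ± 0.533 FPKM at 1 µM, UGT2B11, a glucuronosyltransferase, from 6.751 ± 2.12 to 1.429 ± 0.756 FPKM, and VSIG1, a cell adhesion protein, from 7.179 ± 1.7 to 0.6408 ± 0.309 FPKM. The members themselves ranked lower, from APOH (r = 0.806, rank 132) and APOE (0.799, rank 146) to APOB (0.581) and APOC3 (0.285). Without the libraries above the limit the values were 0.971 for TTR, 0.883 for APOH and 0.0435 for APOC3.

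The herbicides gave no call among the apolipoproteins. APOA2 had 35.82 ± 8.86 FPKM in control cells, 42.41 ± 18.7 FPKM with glyphosate at 10 µg/L, 49.06 ± 15 FPKM at 1 mg/L, 43.21 ± 12.7 FPKM at 0.1 g/L and 38.18 ± 18.6 FPKM with Roundup at 10 µg/L, and each exposed group overlapped the control range. Its log2 fold changes were 0.17 (95% interval -0.50 to 0.83), 0.41 (-0.25 to 1.08), 0.25 (-0.41 to 0.92) and 0.02 (-0.65 to 0.69), intervals that leave out a fall of the size seen at 1 µM PCB 126. Over the 7 tested members and the 4 groups, the log2 fold changes ranged from -0.35, for APOC1 at 0.1 g/L glyphosate, to 0.41, for APOA2 at 1 mg/L, and 0 of 28 had an unadjusted p under 0.05. The adjusted p in limma were at least 0.902. The share of all 9533 genes called lower or higher was 0% in each of these groups by limma, where 95, 125, 84 and 165 genes (0.997%, 1.31%, 0.881% and 1.73%) had an unadjusted p under 0.05 in the order of the groups above, and the ordinary linear model called 1 gene, with glyphosate at 0.1 g/L.

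Roundup and glyphosate were compared at the matched dose of 10 µg/L. The differences of the 7 members, Roundup minus glyphosate, ranged from -0.15 for APOA2 (95% interval -0.81 to 0.52) to 0.07 for APOC1 (95% interval -0.57 to 0.71), with adjusted p from 0.974 to 0.989 in limma. APOA1 had 1032 ± 284 FPKM with Roundup and 1057 ± 352 FPKM with glyphosate, and APOB had 268.1 ± 83.1 and 287.4 ± 81.1 FPKM. Over all genes 0 of 9533 passed the adjusted threshold by limma and 121 (1.27%) had an unadjusted p under 0.05.

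The results at 1 µM PCB 126 were compared over 14 other settings of the analysis and 10 fits that each left out 1 library. APOA2 was called in all 24, with log2 fold changes from -4.04 to -2.78. APOH was called in 11 of the 24, APOE in 6, APOC1 in 3, and APOA1, APOB and APOC3 in 0.

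**Figure D5:**
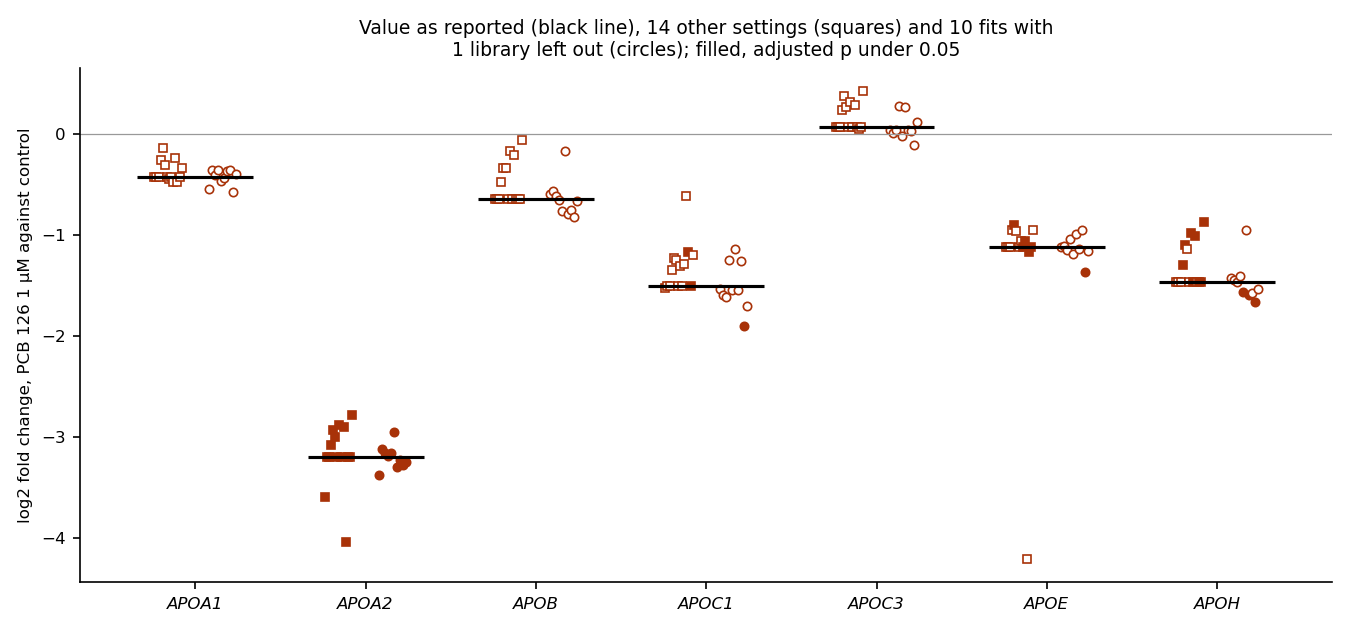
For each tested member at 1 µM PCB 126, the black line is the reported log2 fold change against control, squares are 14 other settings and circles 10 fits with 1 library left out, filled where the adjusted p was under 0.05. All 24 points of APOA2 are filled and lie between -4.04 and -2.78, and 11 points of APOH are filled.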

How the data were processed

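RNA sequencing of ribosomal RNA-depleted, directional libraries was measured in 40 HepaRG samples. Reads had been aligned by the authors with HISAT2 (GRCh38) and transcript abundance estimated by StringTie. The 2 deposited tables give FPKM for 234960 transcripts in each library. Replicates were not pooled, and the values were not scaled between libraries. Some deposited columns held a few values below 0, a score that FPKM cannot take. These values, 4 for PCB 126 and 6 for the herbicides, were replaced by 0, and the columns were used as FPKM like the others. FPKM are not counts, so no count test or counting interval was used and the precision is limited by 5 libraries per group.

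FPKM was summed per gene name. Genes with a variance of FPKM above 1 (9755 and 9533 in the 2 tables) were tested on log2(FPKM + 1), a pseudocount that understates the change of low genes. The test was limma 3.58.1 (lmFit, eBayes) in R 4.3.3, all groups of a table in 1 fit, with Benjamini-Hochberg adjustment over all genes and a threshold of 0.05. It was first tested on simulated data, in which the deviations from the group means were shuffled between libraries separately for each gene. Shifts common to many genes of a library were therefore absent there, and the simulation does not cover them. Ratios of APOA2 were tested with 2-sided exact permutation tests. Groups came from the labels, and the labels do not say what a replicate number shares between groups. Members, lists and alternatives were chosen with earlier results of these data known. All members were named, and of each list at most 4 genes past the threshold at 1 µM PCB 126 with the largest changes. The 5 genes with the highest correlation to APOA2 were named as well. Promoter windows are from RefSeq, and the files' coordinates matched GENCODE for most transcripts. Those that did not match included ENST00000252486, the leading transcript of APOE, ENST00000205948 of APOH, ENST00000227667 of APOC3 and ENST00000236850 of APOA1. Python 3.11.15 with scipy 1.17.1 and matplotlib 3.10.9 was used for the other steps. Alternatives were a pseudocount of 0.1, 2 other filters, 75th-percentile and quantile scaling, an unmoderated linear model with library size as covariate, fits of 2 or 8 groups, array weights, a replicate block, sums per assembled locus, the most abundant transcript, and subsets of libraries. The read depth per library was not used. The level of 1 biliary marker is not reported here.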

Additional observations from a re-analysis of the deposited data

Results flagged for a closer look

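In groups of 5, a library was picked out where its distance to the nearest other library exceeded 0.71 of the range of the group on the log2(FPKM + 1) scale, which chance gives in about 1 of 20 groups. This was the case in 13 of 79 combinations of member and group. At 1 µM PCB 126 replicate 1, a library above the alignment limit, had the lowest APOA2 (0.9483 FPKM, others from 3.218), APOB (47.14 FPKM, others from 188.9) and APOH (36.08 FPKM, others from 184.7), and replicate 5 had the lowest APOA5 (0.609 FPKM, others from 0.739). Without replicate 1, APOB changed by -0.17 and APOH by -0.95 (adjusted p 0.114 in limma) at 1 µM. Control replicate 4 had the highest APOC1 (449.8 FPKM, others up to 201.4) and APOC3 (278.4 FPKM, others up to 144.4), and control replicate 1 had the lowest APOA2 (20.75 FPKM, others from 35.87). At 100 pM PCB 126 replicate 1 had the lowest APOA1 (679.9 FPKM, others from 1276), and replicate 4 was the single one with APOC2 (0.2602 FPKM). Among the herbicide groups, the lowest were APOA2 in replicate 1 of glyphosate 1 mg/L (23.29 FPKM), APOC1 in replicate 2 of glyphosate 0.1 g/L (111.5 FPKM) and APOC3 in replicate 5 of Roundup (108.7 FPKM), and APOC2 was highest in replicate 4 of glyphosate 0.1 g/L (0.228 FPKM).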

How the results depend on the processing

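The call of APOA2 at 1 µM PCB 126 and its falling slope over the dose steps held in every alternative run. The number of members called at 1 µM, 1 as reported, was 2 with 75th-percentile scaling (APOA2 and APOH), 2 without the libraries above the limit, 2 with both (an alternative chosen after seeing the data), 3 with quantile normalization, 3 with array weights, 4 with all 8 groups in 1 fit and 4 with sums per assembled locus, where APOC1 and APOE are the same locus. The labels do not say that a replicate number marks a shared batch, and the deviations of same-numbered libraries correlated from -0.0558 to 0.169 in the PCB 126 table and from -0.170 to 0.3598 in the herbicide table, not over 0.1 in every pair, so the block was not used. Still, 14 of 20 and 18 of 25 libraries correlated best with their own number, a hint of pairing. The library names also run consecutively within each replicate number, with the treatments in the same order. What the libraries of such a run share is not stated. With the replicate block the number called was 3 at 1 µM and 1 at 10 nM, where 0 were called as reported, and 4 instead of 3 on the trend, and the block changed no other count. Leaving out 1 library gave 1 to 4 called members at 1 µM (2 without control replicate 5 or without replicate 2 at 1 µM, 4 without replicate 4 at 1 µM), 0 to 1 at 10 nM and 1 to 4 on the trend, where 3 were called as reported. Over all genes these fits called 69 to 311 lower at 1 µM, 3 to 18 at 10 nM and 143 to 977 on the trend. On the trend the number of members called was 1 with no filter, 1 with the ordinary linear model and 1 with the most abundant transcript. Those fits called 265 of 43478, 314 of 9755 and 180 of 8659 genes lower. Array weights called 1 member, APOC1, with Roundup, in a fit that called 3311 of 9533 genes lower and whose weights stopped before convergence. Over the herbicide groups and 100 pM no other alternative called a member. Over all genes, the 119 called lower and 63 called higher at 1 µM became 323 and 245 with 75th-percentile scaling, 320 and 206 without the libraries above the limit, 274 and 83 with the block, 217 and 81 with all 8 groups, 280 and 121 with sums per assembled locus, 553 and 532 with quantile normalization, 678 and 268 with array weights and 92 and 81 with no filter. The ratio of APOA2 to APOC1 lost its call without the libraries above the limit (-1.58). All of the sign changes were in values that passed no test. APOA1 at 10 nM was 0.11 without the libraries above the limit, 0.0202 with array weights, 0.0441 with the most abundant transcript and 0.16 with 75th-percentile scaling without the libraries above the limit. APOB at 10 nM was 0.13, 0.0149 and 0.18 in the first, second and last of these, 0.11 with quantile normalization and 0.0756 with the ordinary linear model, and ranged from -0.36 to 0.0446 with 1 library left out. APOC3 ranged with 1 library left out from -0.0887 to 0.38 at 10 nM, from -0.11 to 0.28 at 1 µM and from -0.0410 to 0.0656 on the trend, where sums per assembled locus gave -0.00013. The cause of these changes was not tested. Read depth was not known from these values, and 5 libraries per group limit all of them.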
